A study of Mus musculus with 5 samples.

Results

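The genes of polyamine metabolism were followed through a knockdown of Upf1, the RNA helicase that nonsense-mediated mRNA decay (NMD) requires. The 10 genes were taken by symbol from the 55573 gene rows of the count table, and all are reported whatever their values. Their list was chosen with earlier results of these data known. Odc1, Amd1, Srm and Sms stand for synthesis, and Oaz1, Oaz2 and Azin1 for the control of ornithine decarboxylase. Sat1, Smox and Paox stand for catabolism. RNA-seq was made from polyA RNA of Neuro-2A (N2A) cells, an established mouse neuroblastoma line used here as a source of neural cells in which NMD targets could be sought. Cells were transiently transfected with 60 pmol of a commercial negative control siRNA (siCtl, 2 libraries, replicates 1 and 3) or with 60 pmol of an siRNA to Upf1 (siUpf1, 3 libraries, replicates 1, 2 and 3), and no genotype or drug distinguished the groups. All libraries came from 1 cell line and 1 siRNA sequence was used against Upf1, so effects of the knockdown and of that sequence cannot be told apart. The study describes its protein blots of cells treated in this way as independent experiments, but neither the labels nor the methods say that the libraries came from separate cultures, and p-values therefore measure the spread between these libraries, which may be technical.

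Polyamines (putrescine, spermidine and spermine) are small cations that bind RNA and are needed for growth and translation, and neuroblastoma is a tumor in which their synthesis is known to be driven by MYC family factors. Ornithine decarboxylase (Odc1) makes putrescine, S-adenosylmethionine decarboxylase (Amd1) provides the aminopropyl donor, and the synthases Srm and Sms add it to give spermidine and then spermine. When polyamines are plentiful, ribosomes shift frame on antizyme mRNAs (Oaz1, Oaz2), and the antizyme made in this way takes ornithine decarboxylase to the proteasome, whereas antizyme inhibitor (Azin1), a decarboxylase homolog without activity, holds antizyme back. Spermidine/spermine N1-acetyltransferase (Sat1) and the oxidases Paox and Smox run the pathway in reverse.

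Several of these mRNAs carry features that bear on NMD, and the stretches that show them were read from the GRCm38 genome with GENCODE M21 transcripts, whose coordinates are used throughout. An antizyme mRNA read without the shift of frame ends at an early stop codon, which is in capitals in the mouse sites below, each on the plus strand.
Oaz1, chr10:80828283-80828309: cggtggtgctccTGAtgtccctcaccc
Oaz2, chr9:65686260-65686286: ctgtggtgctccTGAtgcccctcaccc
In Oaz1 this stop followed 68 codons, with 3 exon junctions after it and the last of them 344 nt downstream. In Oaz2 it followed 32 codons, also with 3 junctions after it and the last 341 nt downstream. Reading went on for 159 codons in Oaz1 and 157 codons in Oaz2 once the frame was shifted. Junctions that far behind a stop are the arrangement that the exon-junction model of NMD describes.

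Sat1 is known for an alternative exon with a stop codon in frame. GENCODE M21 has it as exon 4 of 7 in Sat1-207, an annotated NMD transcript, 110 nt long at chrX:155215121-155215230 on the minus strand. The start of the exon is given with the stop codon in capitals.
Sat1, chrX:155215205-155215230: gttacagtctcTAGcttcgccatgta
The stop lay 11 nt into the exon, after 71 codons, with 3 junctions behind it and the last 239 nt downstream. The exon made up 8.65% of the length of Sat1-207, so a count of reads per gene holds both Sat1 isoforms and cannot separate them.

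The siRNA to Upf1 is shown because its seeds (bases 2 to 8, in capitals) matched the 3′ untranslated regions (3′ UTRs) of members. Its sense strand matched Upf1 across an exon junction within chr8:70339429-70339757, on the minus strand.
Upf1 siRNA, sense strand: uCAAGGUUccugauaauua
Upf1 siRNA, antisense strand: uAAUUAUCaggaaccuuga
The 7-mer complementary to the antisense seed, GATAATT, was in the representative 3′ UTR of Sms and of no other member. The 7-mer complementary to the sense seed, AACCTTG, was in that of Azin1 only. Searched in mRNA orientation only, GATAATT was in 7.44% and AACCTTG in 8.75% of the representative 3′ UTRs of 21732 protein-coding genes. Those shares were not matched for length, and the 3′ UTRs of Azin1 (2934 nt) and Sms (2282 nt) are longer than the median of 773 nt. These matches describe the sequence and are not evidence of a site in use.

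Knockdown was checked first. Normalized read counts of Upf1 (chr8:70331525-70353278) were 5217 and 5243 in the siCtl libraries and 2403, 2496 and 2449 in the siUpf1 libraries. The siUpf1 mean was 46.8% of the siCtl mean (log2 fold change -1.10, SE 0.05), with an adjusted p of 7.09e-101 in DESeq2's Wald test, in the direction the labels give. Each library held between 20402205 and 27717594 assigned reads. All 10 markers of sympathetic neuroblasts had over 10 reads in every library, and so had 3 of 5 neuronal cytoskeleton genes, of which Map2 was called higher (log2 fold change 0.77), Stmn2 lower (-0.16) and Tubb3 neither, whereas Nefl and Nefm had at most 4 reads. The summed sympathetic markers lay at 28740 to 28870 normalized counts in siCtl and at 35250 to 37200 in siUpf1, and 7 of the 10 were called higher and 1 lower. Their part in the results below was not tested. Markers of fibroblasts (82.1 to 86.0 in siCtl and 88.9 to 92.9 in siUpf1, with Col3a1 at 0), macrophages (37.7 to 39.8 and 33.0 to 35.1) and astrocytes (5.66 to 12.6 and 11.3 to 15.1) were low in both groups.

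On knockdown of Upf1, the mRNAs of the synthases Srm and Sms and of the oxidase Paox rose, and those of Sat1 and Azin1 fell. Sat1 stood at 74.5% of the control, Azin1 at 87.7%, Srm at 110%, Sms at 124% and Paox, the least abundant of the 5, at 130%. The rate-limiting decarboxylases Odc1 and Amd1 and both antizymes passed no threshold in either direction. Of the 9 members that DESeq2 tested, 3 were called higher and 2 lower at an adjusted p under 0.05 (Benjamini-Hochberg over 15191 genes), and 4 were not called. Of all genes tested, 22.0% were called higher and 22.9% lower, and among the 9190 genes with a mean of at least 300 normalized counts 60.8% were called in either direction, so 5 called of 9 lies near the background. The median absolute log2 fold change of the members was 0.14, beside 0.28 over all genes tested, and their median log2 fold change was -0.04, beside 0.00. The libraries of the 2 groups did not overlap for 7 of the 9 members, as for 69.4% of all genes tested. In such bulk samples fewer cells expressing a gene and less RNA per cell cannot be told apart, and each value is relative to the other RNAs of its library.

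**Figure D1:**
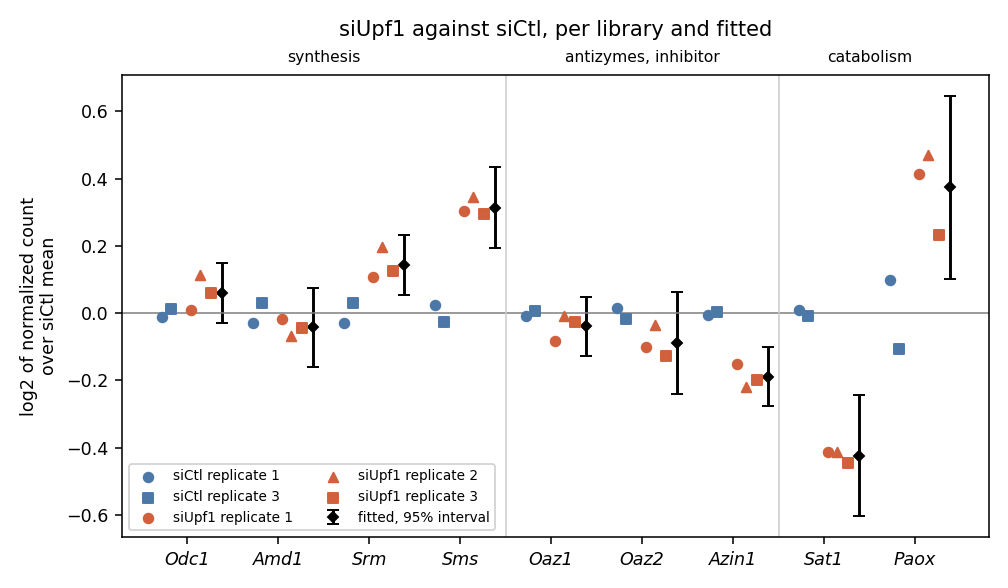
Each colored point is the log2 of a library's normalized read count over the mean of the 2 siCtl libraries, and each black diamond is DESeq2's log2 fold change with its 95% interval, for the 9 members tested. The siUpf1 points of Sms, Srm and Paox lie above both siCtl points and those of Azin1 and Sat1 lie below both, whereas those of Odc1 and Amd1 overlap the siCtl points.

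Synthesis was led by Odc1 (chr12:17544794-17551505), the first and usually limiting enzyme. Its normalized read counts were 7657 and 7781 in siCtl and 7762, 8354 and 8042 in siUpf1. The siUpf1 library of replicate 1 lay between the siCtl libraries, so the groups overlapped. DESeq2 gave a log2 fold change of 0.06 (SE 0.05) and an adjusted p of 0.297. Its 95% interval ran from -1.99% to 10.9%, so that a rise of more than 10.9% lay outside it. Amd1 (chr10:40287458-40302186) behaved likewise. Its counts of 2186 and 2281 in siCtl stood beside 2207, 2132 and 2166 in siUpf1, and the groups overlapped. The log2 fold change was -0.04 (SE 0.06, adjusted p = 0.611), with a 95% interval from -10.5% to 5.33%.

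The 2 aminopropyltransferases rose. Srm (chr4:148591503-148594993), which makes spermidine, had 7936 and 8273 normalized counts in siCtl and 8726, 9282 and 8850 in siUpf1. Every siUpf1 library was above both siCtl libraries, but the step was small, with a log2 fold change of 0.14 (SE 0.04, adjusted p = 0.0047), or 10.4% (95% interval 3.82% to 17.4%). Srm lost its call without siCtl replicate 1 (log2 fold change 0.11, adjusted p = 0.184) and with the replicate number as a block (adjusted p = 0.311).

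Sms (chrX:157443855-157492287), which turns spermidine into spermine, gave the clearest rise among the members. Its counts were 1810 and 1746 in siCtl and 2193, 2258 and 2180 in siUpf1, and the gap between the groups was wider than the spread within either. Its log2 fold change was 0.31 (SE 0.06, adjusted p = 1.9e-06), a rise of 24.2% with a 95% interval from 14.3% to 35.1%. Sms kept its call under all 13 alternative settings, with log2 fold changes from 0.29 to 0.34. Sms is also the member whose 3′ UTR held the 7-mer of the antisense seed shown above, and of the 970 tested genes with that 7-mer 28% were called higher and 27.3% lower, beside 24.5% and 26.6% of all 12713 tested genes with a representative coding transcript. Whether that match bore on the rise of Sms was not tested.

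Genes that share sequence with the synthesis enzymes were sought by symbol only, and rows were taken for Amd1 and Sms. Copies under other names were not examined. Amd1 has 7 further rows in the table, 6 pseudogenes and the paralog Amd2, which together held 8.89% to 11.0% as many reads as Amd1. Amd-ps4 was the largest of them, with 108 to 210 reads, and Amd2 had 3 to 8. The pseudogene Sms-ps held 1.46% to 2.06% as many reads as Sms. Counting can split or discard reads of such copies, and reads discarded in this way are not in the table, so the Amd1 level is uncertain by an amount that was not measured. Adding their reads to the member changed no call.

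The antizymes passed no threshold. Oaz1 (chr10:80826656-80829290), the main antizyme, had 7089 and 7168 normalized counts in siCtl and 6735, 7087 and 6995 in siUpf1. The siUpf1 library of replicate 2 was almost level with siCtl replicate 1, so the groups were apart in order only. The log2 fold change was -0.04 (SE 0.04, adjusted p = 0.508), and the 95% interval from -8.37% to 3.34% was narrow around 0. Oaz2 (chr9:65668001-65690300), a second antizyme, had 1170 and 1145 in siCtl and 1081, 1130 and 1060 in siUpf1. The groups did not overlap, but the log2 fold change of -0.09 (SE 0.08) had an adjusted p of 0.377 and a 95% interval from -15.3% to 4.44%. Neither antizyme has an annotated NMD transcript in GENCODE M21, despite the early stops shown above.

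Azin1 (chr15:38487427-38519266), the antizyme inhibitor, fell. Its counts were 6556 and 6596 in siCtl and 5921, 5649 and 5732 in siUpf1, with every siUpf1 library below both siCtl libraries. The log2 fold change was -0.19 (SE 0.04, adjusted p = 0.00011), and the mRNA fell by 12.3% (95% interval -17.5% to -6.74%). The call was lost with the replicate number as a block, at a log2 fold change of -0.17 and an adjusted p of 0.12. Azin1 has 2 annotated NMD transcripts and 3 ATG triplets upstream of its start codon, features that are listed again below for all members. Its 3′ UTR held the 7-mer of the sense seed, and of the 1243 tested genes with that 7-mer 21.8% were called higher and 37.2% lower, beside 24.5% and 26.6% of all 12713 such genes. Whether that match bore on the fall of Azin1 was not tested.

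Ratios of reads within a library do not depend on the scaling between libraries. Oaz1 reads per Odc1 read were 0.926 and 0.921 in siCtl and 0.868, 0.848 and 0.870 in siUpf1. Oaz2 per Odc1 was 0.153 and 0.147 in siCtl and 0.139, 0.135 and 0.132 in siUpf1. Both antizymes therefore stood lower against Odc1 mRNA in every siUpf1 library than in any siCtl library, at 93.3% and 90.3% of the siCtl mean ratio.

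The inhibitor, which was called lower itself, also stood lower against both Odc1 and Oaz1, neither of which was called. Azin1 per Odc1 was 0.856 and 0.848 in siCtl and 0.763, 0.676 and 0.713 in siUpf1, a mean ratio of 84.2% of the control. Azin1 per Oaz1 was 0.925 and 0.920 in siCtl and 0.879, 0.797 and 0.819 in siUpf1, or 90.2%. Sat1 per Srm, which sets a member that fell against one that rose, was 0.104 and 0.0991 in siCtl and 0.0710, 0.0667 and 0.0684 in siUpf1, or 67.5%. It does not stand for catabolism against synthesis as a whole, since the oxidase Paox rose by 29.6% and Odc1 and Amd1 were not called. Smox per Sms rested on at most 2 Smox reads and overlapped between the groups. The groups did not overlap for any of the other 5 ratios, which are given as values with no test. These ratios reuse the same few genes, and the share over other pairs of genes was not computed. Of single genes tested, 69.4% did not overlap.

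**Figure D2:**
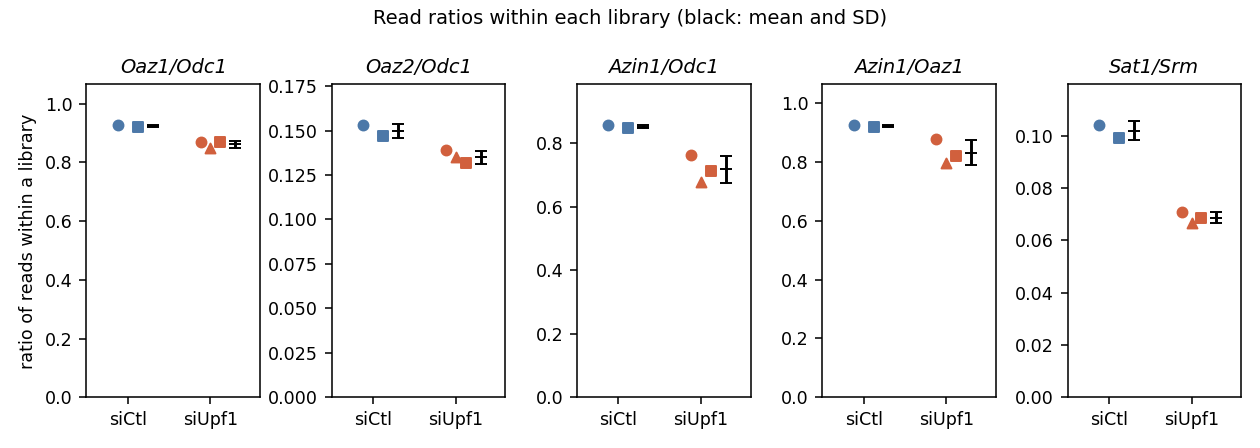
Each panel plots the ratio of raw reads of a pair of genes in each library on an axis that starts at 0, with siCtl in blue, siUpf1 in orange, circles for replicate 1, triangles for replicate 2, squares for replicate 3, and black marks for the group mean and SD. All 3 siUpf1 points lie below both siCtl points in each panel. The drop is widest for Sat1 over Srm, to 67.5% of the siCtl mean, a pair that sets a member that fell against one that rose.

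Catabolism held 1 fall and 1 rise. Sat1 (chrX:155213132-155216449), whose product acetylates spermidine and spermine for export or oxidation, had 829 and 820 normalized counts in siCtl and 620, 619 and 605 in siUpf1. The libraries within each group lay close together and the groups were far apart. On the log2 scale the change was -0.42 (SE 0.09, adjusted p = 1.9e-05), and the mRNA fell by 25.5% (95% interval -34.2% to -15.5%). It kept its call under all 13 alternative settings, with log2 fold changes from -0.44 to -0.31. The value nearest to 0 came after correction of each library for transcript length and GC content. How much of the fall belonged to the transcript with the stop-bearing exon shown above was not tested, because the counts are per gene.

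Paox (chr7:140115799-140137224), the peroxisomal oxidase that acts on acetylated polyamines, rose from a low level. Its counts were 305 and 264 in siCtl and 379, 394 and 334 in siUpf1, and the groups did not overlap. The fitted log2 fold change was 0.37 (SE 0.14, adjusted p = 0.0186), a rise of 29.6% with a wide 95% interval from 7.24% to 56.6%. This call depended on single libraries. It was lost without siCtl replicate 3 (adjusted p = 0.29), without siUpf1 replicate 1 (0.0864), without siUpf1 replicate 2 (0.105) and with the replicate block (0.27). Exons of Paox overlap those of Echs1 on the opposite strand, and those of Azin1 overlap Gm49077 likewise, but reads were counted by strand. An exon of Oaz1 overlaps the microRNA gene Mir1982 on the same strand, which counting by strand does not resolve.

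Smox, the spermine oxidase, was at the limit of detection. It had 1 read in each siCtl library and 0, 2 and 2 reads in siUpf1. These counts are all under a floor of 3 reads per library, so no fold change is given and DESeq2 gave no adjusted p.

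Levels were compared between genes as TPM, that is reads per length of the representative transcript, scaled to the same total in every library. The order of the siCtl means was Oaz1 (549 ± 18.4, SD, n = 2), Srm (487 ± 26.9), Odc1 (281 ± 10.4), Azin1 (109 ± 3.26), Sat1 (57.1 ± 1.01), Amd1 (56.1 ± 3.14), Oaz2 (50.5 ± 0.544), Sms (38.5 ± 0.0112), Paox (4.91 ± 0.373) and Smox (0.0353 ± 0.00172). Sat1 and Amd1 could not be ordered, because the siCtl libraries of Amd1 spanned those of Sat1. In the siUpf1 libraries Sat1 averaged 43.0 ± 3.38 TPM (SD, n = 3) and Sms 48.4 ± 3.04. Sms stood below Sat1 within both siCtl libraries and above it within each of the 3 siUpf1 libraries, although the siUpf1 ranges of the pair overlapped. Oaz1 (540 ± 28.7) and Srm (544 ± 25.2) overlapped in siUpf1.

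**Figure D3:**
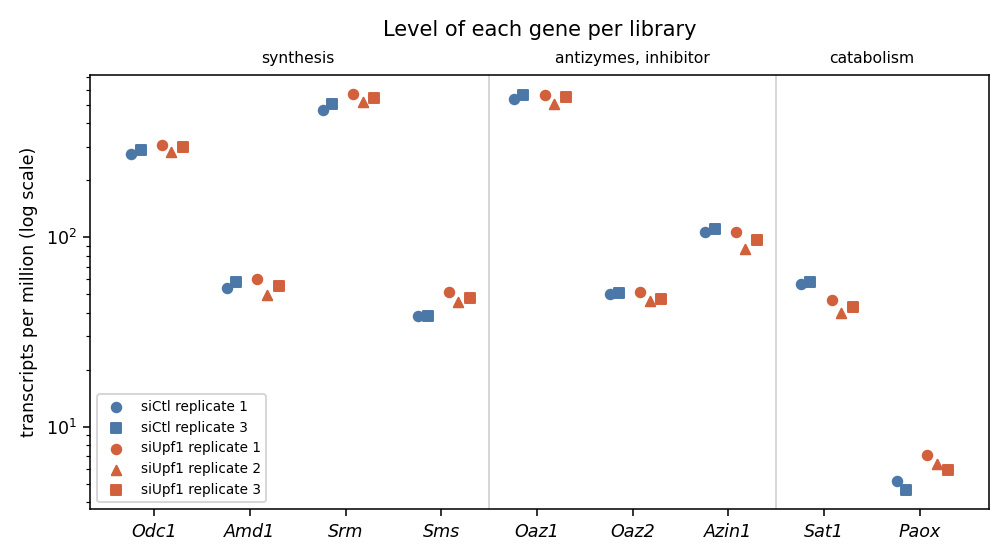
TPM of 9 members in each library, on a log axis, with siCtl in blue and siUpf1 in orange; Smox, at 0 to 2 reads, is left out. Levels span from 4.91 TPM for Paox to 549 TPM for Oaz1 in the siCtl means, and the differences between genes are far wider than those between groups.

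The members were set beside the transcript features that NMD is known to read. An annotated NMD transcript was present for 6 members, with 3 for Smox, 2 each for Odc1 and Azin1, and 1 each for Sat1, Paox and Sms. It was present for 20.6% of 21732 protein-coding genes and for 28.4% of the 12713 tested ones. Of these 6 members, 2 were called higher, 2 lower, 1 was not called and 1 was not tested. Of the 4 without one, 1 was called higher and 3 were not called. Among the 12713 tested genes with a representative coding transcript, 23.1% of those with an annotated NMD transcript were called higher and 29.3% lower, beside 25.1% and 25.6% of those without.

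Upstream ATG triplets, which can open short reading frames ahead of the start codon, were found in the representative 5′ UTR of 5 members, with 4 in Sms, 3 in Azin1, 2 each in Odc1 and Sat1, and 1 in Amd1. At least 1 was found in 51.4% of protein-coding genes. Of the 5 members with one, 1 was called higher and 2 lower, whereas of the 5 without, 2 were called higher and none lower. Over the same 12713 genes the shares were 27.6% higher and 24.5% lower with an upstream ATG, and 21.2% and 28.8% without. No member has an intron over 50 nt behind its stop codon in the representative transcript, and only 0.442% of protein-coding genes have one. Representative transcripts were taken from those annotated as protein coding where there was one, so annotated NMD transcripts were passed over. The low share therefore follows in part from that choice. These counts of members are too few for a comparison and are given as a description.

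Genes that feed or use the pathway were described from a list of 37, of which 26 were tested. Of these, 5 were called higher and 6 lower, beside the 22.0% and 22.9% of all genes tested, and the median log2 fold change was -0.09. The further antizyme gene Oaz3 and the further antizyme inhibitor gene Azin2 were not called. Their log2 fold changes were -0.25 (SE 0.80) and 0.28 (SE 0.18), and Oaz3 had at most 12 reads.

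Transport of polyamines and their precursors held 4 called genes among 6 tested. This share of 66.7% stood beside 44.9% of all genes tested and 60.8% of those with a mean of at least 300 normalized counts. Atp13a3, a P5-type ATPase of polyamine uptake, rose from 3855 ± 53.8 (SD, n = 2) to 5003 ± 317 (n = 3) normalized counts, or by 0.38 on the log2 scale (SE 0.06, adjusted p = 2.99e-10 with DESeq2). Slc3a2, the heavy chain of several amino acid transporters, rose by 0.33 (SE 0.05, adjusted p = 8.97e-11). Atp13a2, the lysosomal polyamine exporter, rose by 0.28 (SE 0.07, adjusted p = 0.000158). In contrast, Slc12a8 fell by 0.77 on the log2 scale (SE 0.13, adjusted p = 4.37e-08), from 427 ± 21.3 to 251 ± 5.19. Slc18b1 (log2 fold change -0.915, SE 0.43) and Slc7a1 (-0.086, SE 0.04) also had values below 0 but were not called. With the replicate block Atp13a2 lost its call (adjusted p = 0.108).

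Another list held genes that make S-adenosylmethionine or salvage methionine from the by-product of spermidine and spermine synthesis, and also Ahcy. Of its 9 tested genes, 3 were called lower and none higher. That is 33.3% called, beside 44.9% of all genes tested, of which 22.9% were lower and 22.0% higher. Got1, an aspartate aminotransferase, fell by 0.45 on the log2 scale (SE 0.06, adjusted p = 1.08e-11). Mat2b, the regulatory subunit of methionine adenosyltransferase, fell by 0.39 (SE 0.06, adjusted p = 3.16e-09). Adi1, a dioxygenase of the salvage cycle, fell by 0.39 (SE 0.14, adjusted p = 0.0142), and this call was lost in 6 of 13 alternative settings, among them each siCtl library left out (adjusted p = 0.231 without replicate 1 and 0.0556 without replicate 3), siUpf1 replicate 1 (0.0964) and siUpf1 replicate 3 (0.0773). The catalytic subunit Mat2a was not called (log2 fold change 0.04, SE 0.04).

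For the supply of ornithine only Oat, ornithine aminotransferase, was expressed well enough to test. It rose by 0.14 on the log2 scale (SE 0.06, adjusted p = 0.0377), and leaving out any 1 library ended the call, with adjusted p from 0.062 to 0.254. Of the hypusination genes, which place a spermidine-derived residue on eIF5A, only Eif5a2 was called, at -0.25 (SE 0.11, adjusted p = 0.0456). That call was also lost with any 1 library left out (adjusted p 0.0613 to 0.453). Eif5a itself was at 0.04 (SE 0.04) and was not called, although it was called once length and GC trends were removed, as given below.

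Among the transcription factors known to drive Odc1, Mycn showed the widest difference of all 26 tested genes of the list. Its normalized counts were 274 and 244 in siCtl and 673, 640 and 649 in siUpf1, without overlap. The fitted log2 fold change was 1.34 (SE 0.12, adjusted p = 1.08e-28). Myc, at 6292 ± 44.1 and 5910 ± 101 normalized counts, was not called (log2 fold change -0.09, SE 0.04, adjusted p = 0.0846). Their partner Max was called lower at -0.14 (SE 0.06, adjusted p = 0.0311), but not with any 1 library left out (adjusted p 0.0677 to 0.333). Odc1 was not called beside the rise of Mycn mRNA.

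**Figure D4:**
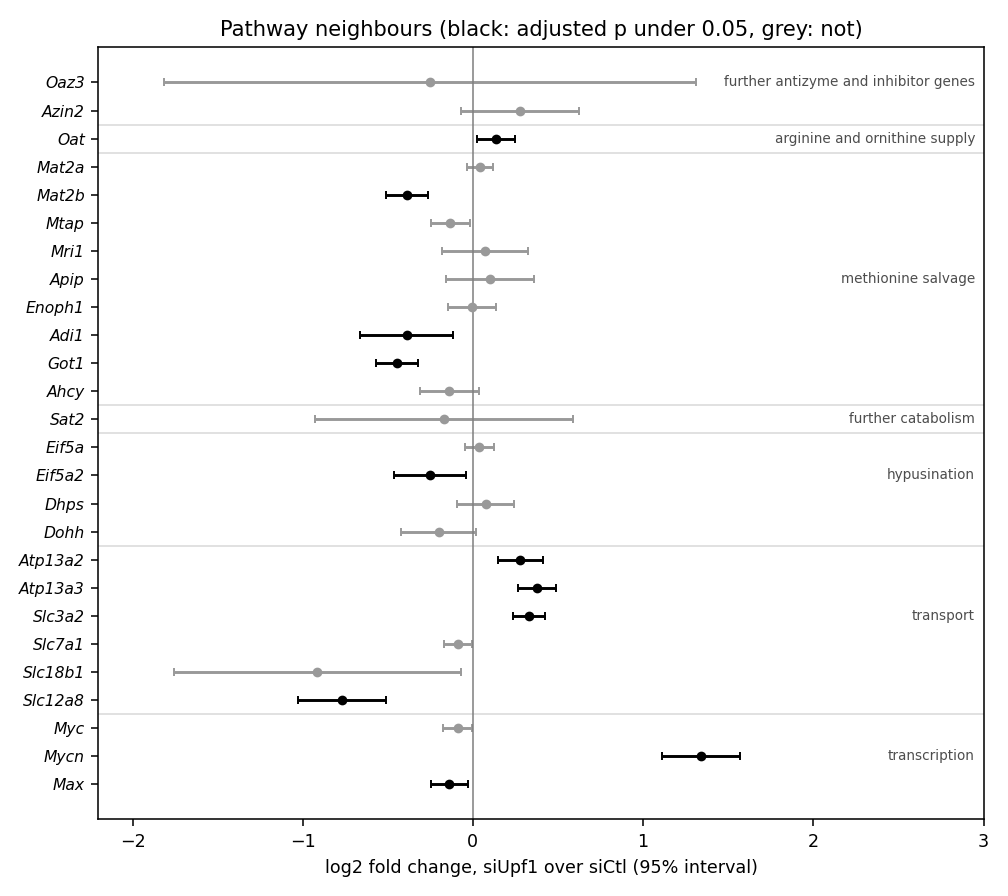
DESeq2 log2 fold changes of siUpf1 over siCtl with 95% intervals for the 26 tested genes that feed, use or regulate the pathway, ordered by role, in black where the adjusted p was under 0.05 and in gray where it was not. Mycn stands apart at 1.34. Of the transport genes 3 lie right of 0, whereas Slc12a8, which was called, and Slc18b1 and Slc7a1, which were not, lie left of it. The called genes of S-adenosylmethionine supply and methionine salvage lie left of 0.

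**Figure D5:**
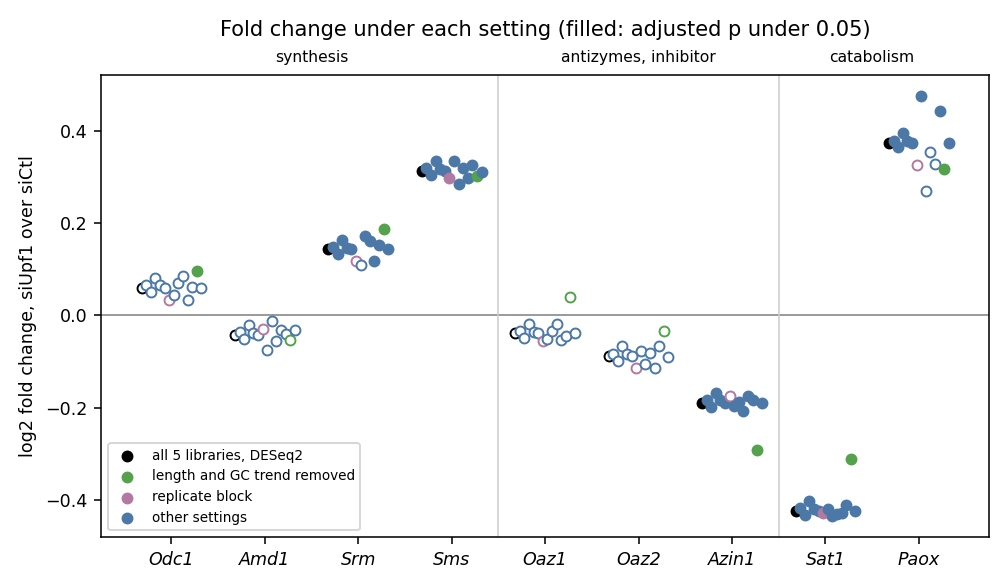
Log2 fold change of each of the 9 tested members in the fit to all 5 libraries (black) and under 13 alternative settings, filled where the adjusted p was under 0.05 and open where it was not. Sms and Sat1 are filled throughout, Paox and Srm are open in 4 and 2 settings, and Oaz1 crosses 0 when length and GC trends are removed.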

How the data were processed

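The authors deposited raw read counts per gene for the 5 polyA, strand-specific libraries. By the study's methods, reads were trimmed with fastp, mapped to GRCm38.p6 with STAR (2.7.0f in the submitters' processing notes) and counted by strand over exons with featureCounts (Subread 1.6.4), without pooling. Every column of the table had a sample. Groups and replicate numbers came from the labels. DESeq2 1.42.0 (R 4.3.3) was fitted to the whole table with a single term for the group. Its default size factors and independent filtering were used, p-values were adjusted by Benjamini-Hochberg, and genes with an adjusted p under 0.05 were called. Intervals are the log2 fold change ± 1.96 SE. The scripts were tested on simulated data.

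Assigned reads per library numbered 20402205 to 27717594. PCR duplicates cannot be recognized in counts, so the true error of a value exceeds its counting error. Features, TPM lengths and sequences came from 1 representative transcript per gene in GENCODE M21, where 99.7% of the identifiers were found, and which may not be the isoform used in N2A cells. In both antizymes the annotation leaves out 1 base at the frame shift, which was put back from another transcript of the gene.

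The members and all gene lists were chosen with earlier results of these data known. Genes named are Upf1, the 10 members, their pseudogenes and Amd2, and up to 4 called genes per list of pathway neighbors by smallest adjusted p. Other genes (Oaz3, Azin2, Mat2a, Ahcy, Eif5a, Myc, Slc18b1, Slc7a1, Enoph1 and markers) were named with their values in view. Alternatives, 13 in number, comprised edgeR 4.0.16 (quasi-likelihood), TMM and total-count size factors, a minimum of 10 counts in 2 libraries, no filter, the replicate block, each library left out, and, chosen after seeing the data, removal of length and GC trends and addition of pseudogene reads. Trends were fitted over genes with a mean of at least 50 counts.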

Additional observations from a re-analysis of the deposited data

How the results depend on the processing

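Over 13 alternative settings, 108 of 117 values of the 9 tested members kept their direction and their side of the threshold, 7 lost the call, 1 gained it and 1 turned. Sms and Sat1 kept their calls in all 13. With the replicate block, 1 member was called higher (Sms) and 1 lower (Sat1), and 3 pathway neighbors were called higher and 3 lower. Whether the replicate numbers pair the libraries could not be decided. Deviations from the group mean correlated at -0.0861 (number 1) and -0.0748 (number 3) for same-numbered libraries, with only 2 pairs. The deviations of the 2 siCtl libraries mirror each other, so these values cannot show that pairing is present or absent. Number 2 has no siCtl library, so the block sets siUpf1 replicate 2 aside and has fewer degrees of freedom. Leaving out each library in turn gave 3 to 4 neighbors called lower in place of 6. Removing length and GC trends turned Oaz1 to 0.04 (adjusted p = 0.406), gave Odc1 a call (0.10, adjusted p = 0.0192), and moved Azin1 to -0.29. Among the neighbors it gave calls to Eif5a (0.108, adjusted p = 0.000412), Mat2a (0.073, adjusted p = 0.0368) and Slc7a1 (-0.209, adjusted p = 2.43e-10). Adi1 and Max lost their calls in that setting. The cause of these shifts was not tested. Enoph1, at -0.01 in the fit to all libraries, turned to 0.016 with total-count size factors and 0.053 with length and GC trends removed, and ranged from -0.025 to 0.008 with libraries left out, without a call. Where 1 siCtl library was left, it was assumed to vary like the siUpf1 libraries. The reads give little precision for Paox and none for Smox.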
